A study of Mus musculus with 2 samples.

Results

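The GATA factors and their partners were followed as 7 genes: Gata1, Gata2 and Gata3, which encode zinc-finger transcription factors, Zfpm1, which encodes the GATA cofactor FOG1, Tal1, which encodes a basic helix-loop-helix factor, and Lmo2 and Lmo4, which encode LIM-only adaptor proteins. They were chosen by symbol, and all 7 were found among the 31053 genes of both count matrices. Mouse bone marrow cells were sorted as E-cadherin+cKIT+ or as E-cadherin+cKIT-, and each sort gave 1 single-cell library, so that no difference between the sorts has a replicate and none was tested. The labels give FVB as the strain of both groups, whereas the paper names the animals of this experiment in one place as wild-type and in another as Vav-iCre;mTmG mice, in which Cre acts in hematopoietic cells on a fluorescent reporter and Cdh1 is intact. Cells of several animals were pooled, so that animals cannot be told apart, and their age is not given in the sources used here. Both groups share the E-cadherin gate, strain and tissue and differ in the cKIT gate. After filtering, 6479 cKIT+ and 3662 cKIT- cells remained, with a median of 13039 and 4416.5 unique molecular identifiers (UMIs, each marking 1 captured RNA molecule) per cell. The genes behind the gates separated the sorts on the RNA level for Kit, at 37.1 UMIs per 1000000 UMIs (CPM) among cKIT+ against 0.875 CPM among cKIT- cells, while Cdh1, which encodes E-cadherin, was at 62.8 and 193 CPM. Cell barcodes shared by both libraries numbered 10.

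GATA factors bind the DNA motif they are named after and set the fate of several blood lineages from one progenitor pool. GATA2 acts early, in stem cells and progenitors, and is kept in mast cells and basophils. GATA1 drives the erythroid, megakaryocyte and eosinophil programs, and the replacement of GATA2 by GATA1 at shared sites during erythroid maturation is known as the GATA switch. FOG1 binds GATA1 and brings corepressors to it; it is required for red cells and platelets and is known to counteract the eosinophil and mast cell fates. TAL1 binds E-box motifs, and LMO2 together with LDB1 bridges TAL1 and GATA factors into 1 complex on DNA. LMO4 binds LDB1 as well, and GATA3 is best known from T cells and innate lymphoid cells.

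In GRCm38, with gene spans from the GENCODE annotation, Gata1 lies on chromosome X from 7959260 to 7978071 on the minus strand (ENSMUSG00000031162), Gata2 on chromosome 6 from 88193891 to 88207032 on the plus strand (ENSMUSG00000015053) and Gata3 on chromosome 2 from 9857078 to 9890034 on the minus strand (ENSMUSG00000015619). Zfpm1 lies on chromosome 8 from 122282141 to 122337251 on the plus strand (ENSMUSG00000049577) and Tal1 on chromosome 4 from 115056426 to 115071755 on the plus strand (ENSMUSG00000028717). Lmo2 lies on chromosome 2 from 103957986 to 103981878 on the plus strand (ENSMUSG00000032698) and Lmo4 on chromosome 3 from 144188530 to 144205220 on the minus strand (ENSMUSG00000028266). The counts come from a 3′ method and are given per gene, so that isoforms cannot be told apart and the level of one gene is not compared with that of another. The RefSeq promoter table of GRCm38.p6 matched 6 of the 7 genes, all but Lmo2.

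Promoters are shown for Gata1, Tal1 and Zfpm1, which all had their highest level in one of the erythroid gates described later, since GATA and E-box motifs are the letters that the proteins of Gata1 and Tal1 read. Each is the 250 bases before an annotated transcription start, printed 5′ to 3′ in the direction of the gene, with matches in capitals. The GATA motif was searched as NGATAN with A or T before GATA and A or G after it, and the E-box as CANNTG, on both strands.
Gata1, chrX:7967911-7968160, minus strand: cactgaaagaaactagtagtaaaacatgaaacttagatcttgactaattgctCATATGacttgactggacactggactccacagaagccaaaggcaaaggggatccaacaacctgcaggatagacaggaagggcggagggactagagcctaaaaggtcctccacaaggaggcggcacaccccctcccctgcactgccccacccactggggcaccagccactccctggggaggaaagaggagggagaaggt
Tal1, chr4:115056176-115056425, plus strand: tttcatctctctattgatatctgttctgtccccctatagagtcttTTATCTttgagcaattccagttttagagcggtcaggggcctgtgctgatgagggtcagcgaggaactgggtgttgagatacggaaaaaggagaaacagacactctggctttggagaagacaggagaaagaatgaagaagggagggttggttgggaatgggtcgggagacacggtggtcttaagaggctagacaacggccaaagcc
Zfpm1, chr8:122281891-122282140, plus strand: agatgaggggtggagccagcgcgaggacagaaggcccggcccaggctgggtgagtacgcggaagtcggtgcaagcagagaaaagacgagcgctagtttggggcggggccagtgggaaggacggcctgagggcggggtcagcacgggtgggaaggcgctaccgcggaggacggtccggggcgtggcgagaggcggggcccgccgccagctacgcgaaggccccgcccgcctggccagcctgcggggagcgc
The capitals mark an E-box that begins 198 bases before the start of Gata1, a start that lies inside the GENCODE span of the gene, and in Tal1 a GATA motif on the opposite strand that begins 205 bases before the start. The table holds 2 windows for Tal1, and the other had no match to either motif. The Zfpm1 window held neither. Of the windows of other members, 2 of 3 for Lmo4 held an E-box, which is 1 match counted in both because these windows overlap, and none of the 2 of Gata2 or the 1 of Gata3 held a match to either motif. Among all 32851 windows of this length, 26.5% held the GATA motif and 66.2% the E-box, so either match is common, and it is a description of letters and not of binding.

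Between the sorts, Gata2 and Lmo4 stood apart in opposite directions. Levels are UMIs summed over cells and scaled to CPM, with the exact Poisson 95% interval in brackets, ratios carry the exact binomial interval, and all intervals cover counting error only. Gata2 was at 496 CPM in cKIT+ cells (45198 UMIs) and at 1132 CPM in cKIT- cells (25884 UMIs), 2.28 times higher in the cKIT- library (2.25 to 2.32). In cKIT+ cells Lmo4 was at 844 CPM against 374 CPM in cKIT- cells, 2.26 times higher in the cKIT+ library (2.21 to 2.31). With 1 library a group, a gene was called only where it reached at least 10 CPM in either group and differed at least 2-fold: 1 of 6 members tested was called higher in cKIT+ and 1 lower, where 7.30% of all 8023 genes tested were called higher and 9.06% lower. The median log2 ratio was -0.20 for the 6 members and -0.03 for all genes.

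The remaining members lay within a 2-fold range. Gata1 was at 30.9 CPM in cKIT+ and 35.7 CPM in cKIT- cells, a ratio of 0.866 (0.801 to 0.938). Tal1 was at 28.8 and 36.3 CPM (0.792, 0.733 to 0.858), and Lmo2 at 121 and 138 CPM (0.878, 0.843 to 0.913). Each of the 3 was thus slightly higher in the cKIT- library, by more than the counting error alone. Zfpm1 went the other way, at 12.2 and 8.26 CPM (1.47, 1.26 to 1.73). Gata3 was scarce, with 91 UMIs in 76 cKIT+ cells and 20 UMIs in 18 cKIT- cells, which is about 1 CPM or less and below the minimum for a call. Of 6479 kept cKIT+ cells, the 76 with a Gata3 UMI also held UMIs of T cell and innate lymphoid genes. Trbc2 had 157 of its 6829 library UMIs there, Cd7 49 of 1097, Rora 28 of 894, Il7r 27 of 396, Cd3g 25 of 109, Cd3d 18 of 891, Thy1 10 of 193, Cd3e 3 of 22 and Trac 0 of 12. Most UMIs of each of these genes thus lay in cells without a Gata3 UMI. The 76 cells are a small part of the 6479, however, and each gene but Trac had a larger share of its UMIs there than their share of cells. The part of cell depth in these shares was not tested. In the 18 cKIT- cells Cd7 had 28 of 6271, Trbc2 21 of 3164, Il7r 14 of 1728 and Thy1 2 of 128 UMIs, and Cd3d, Cd3e, Cd3g, Trac and Rora had 0.

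The choice of scale bears on these ratios, because a cKIT+ cell held more UMIs. The paper also reports more sequencing reads per cell for the cKIT+ library. Counts per cell without scaling carry that difference too, and its part in them was not tested. Counted per cell without scaling, Gata2 was level between the sorts at a ratio of 0.987, so that its call ended, while Lmo4 rose to 5.08 and Zfpm1 to 3.32, and the ratios of Gata1, Tal1 and Lmo2 moved to the other side of 1 (1.95, 1.78 and 1.98). Zfpm1 also passed 2-fold when each cell was given the same weight, at 2.15. In sums over a whole sort, a change in the kinds of cells and a change in RNA per cell cannot be told apart, which is why the members were next read within gates.

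**Figure D1:**
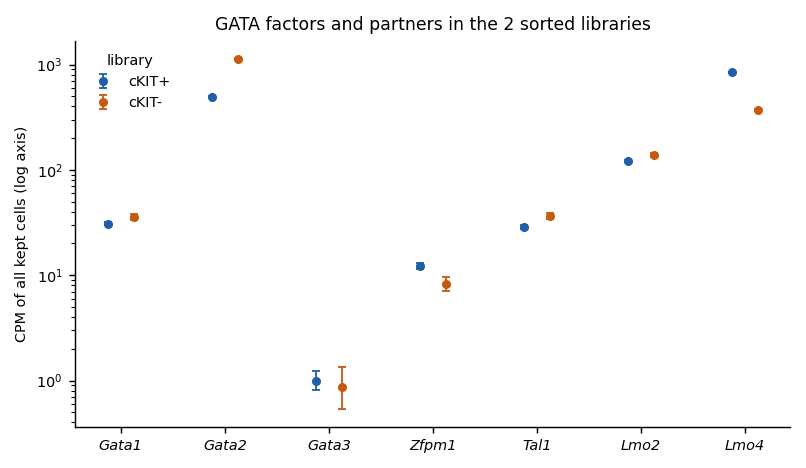
CPM of the 7 members in all kept cells on a log axis, with blue points for the cKIT+ and orange points for the cKIT- library and bars for the exact Poisson 95% interval. Gata2 is higher in the cKIT- library (496 against 1132 CPM) and Lmo4 in the cKIT+ library (844 against 374 CPM), and the intervals of Gata3 overlap.

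Cells were gated by 1 lineage marker each, set as a minimum share of a cell's UMIs: Mcpt8, a basophil protease, Prg2, the eosinophil major basic protein, Elane, neutrophil elastase of granulocyte-monocyte progenitors, Hba-a1, an alpha globin, and Gzmb, a granzyme used here as a mast cell marker. In the cKIT+ library, 3039 cells passed the Mcpt8 gate alone, 257 the Prg2, 647 the Elane, 53 the Hba-a1 and 302 the Gzmb gate, and 133 passed more than 1 and were left out. Among cells that passed none of these, Car1, a carbonic anhydrase of early erythroid cells, marked 40 Cd79a, a subunit of the B cell receptor, 51, Ngp, a neutrophil granule gene, 317, H2-Aa, an MHC class II gene, 93, and C1qa, a complement gene of macrophages, 37, and 1447 stayed ungated. The cKIT- library held 2197 Mcpt8-gated, 59 Cd79a-gated and 1151 ungated cells, but 5 or fewer in each of the Prg2, Elane, Hba-a1, Gzmb and Car1 gates, so that comparisons between lineages were made in the cKIT+ library alone. A gate is a range of 1 gene and not a cell type. The eosinophil list reached 20 CPM for 8 of 9 genes in the Prg2 gate, the granulocyte and monocyte progenitor list for 8 of 8 in the Elane gate, the erythroid list for 10 of 10 in the Hba-a1 gate and the B-lineage list for 6 of 6 in the Cd79a gate. In the Gzmb gate only 4 of 7 mast cell genes did so, led by Gzmb, Cma1 and Kit, and the tryptases Tpsb2 and Tpsab1 were at 0. Each of these lists holds the marker of its own gate, so that each count includes a gene fixed by the gate. Ungated cKIT- cells carried 9 of 10 basophil genes, summing to 10599 CPM and led by Ccl3, against 93278 CPM in the Mcpt8 gate of that library.

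Gata2 was highest in the Gzmb and Mcpt8 gates and low in the Elane gate. In the cKIT+ library it was at 888 CPM (852 to 924) in the Gzmb gate, 719 CPM (711 to 727) in the Mcpt8 gate, 473 CPM in ungated cells, 199 CPM (169 to 233) in the Car1 gate, 122 CPM (107 to 139) in the Prg2 gate, 53.1 CPM (29.7 to 87.5) in the Hba-a1 gate, 34.9 CPM (18.6 to 59.6) in the Cd79a gate and 24.4 CPM (22.0 to 27.0) in the Elane gate. Neighbours in that order were apart by more than the counting error down to the Prg2 gate, while the intervals of the Hba-a1 and Cd79a gates and those of the Cd79a and Elane gates overlapped. The C1qa gate had 1 Gata2 UMI, or 8.15 CPM (0.206 to 45.4), which overlaps the Elane gate, and the Ngp and H2-Aa gates were at 57.6 CPM (50.1 to 66.0) and 78.8 CPM (58.5 to 104). Against the Mcpt8 gate, Gata2 was 29.5-fold lower in the Elane gate (26.6 to 32.8), 13.6-fold lower in the Hba-a1 gate (8.22 to 24.2), 5.90-fold lower in the Prg2 gate (5.19 to 6.74) and 3.62-fold lower in the Car1 gate (3.09 to 4.27), and 1.23 times higher in the Gzmb gate (1.18 to 1.29).

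RNA free in the droplets can set a floor under such levels, and its part in them was not tested. Prss34, a basophil protease, stood at 1.49% of its library level in the Elane gate, 3.48% in the Hba-a1 gate, 6.05% in the Prg2 gate and 0.871% in the Cd79a gate. Gata2 stood at 4.91%, 10.7%, 24.6% and 7.03% of its own library level in the same gates, above Prss34 in each. In the C1qa gate both were level, at 1.64% for Gata2, on 1 UMI, and 1.62% for Prss34. Mcpt8-gated cells were left out of these gates, so that a low Prss34 there is partly set by the gating. The Cd79a gate, where Gata2 should be absent, stood above the Elane gate, so the Gata2 level of the Elane gate could not be told from it. The 13 Gata2 UMIs of the cKIT+ Cd79a gate lay in 5.88% of its 51 cells, however. In the cKIT- library, where Gata2 was at 1132 CPM, the 59 Cd79a-gated cells held 0 Gata2 UMIs. The part of mixed cells in the Cd79a level was not tested. In the Hba-a1 gate its 15 UMIs came from 4 of 53 cells, and when the cells with the highest doublet scores were left out it was at 23.5 CPM. After each cell was thinned to 2000 UMIs, 73.6% of Mcpt8-gated, 77.3% of Gzmb-gated, 50% of Car1-gated, 14.3% of Prg2-gated and 4.84% of Elane-gated cells had a Gata2 UMI, beside 2.04% of Cd79a-gated cells, which should lack it. Unthinned, the shares were 98.9%, 99.3%, 72.5%, 39.3% and 22.3%, beside 5.88% in the Cd79a gate, at median depths of 14103, 8222, 12228.5, 4172, 23985 and 4268 UMIs. The Car1 gate thus held Gata2 in fewer cells than the Mcpt8 gate and at an intermediate level.

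Gata1 was highest in the erythroid gates, while Gata2 was highest in the Gzmb and Mcpt8 gates. Both were low in the Elane and Cd79a gates. Gata1 was at 98.1 CPM (77.3 to 123) in the Car1 gate, 77.8 CPM (48.8 to 118) in the Hba-a1 gate, 48.1 CPM (38.8 to 59.0) in the Prg2 gate, 42.3 CPM in ungated cells, 36.9 CPM (35.1 to 38.7) in the Mcpt8 gate, 30.3 CPM (24.1 to 37.6) in the Gzmb gate and 2.56 CPM (1.82 to 3.49) in the Elane gate. Neighbours in that order had overlapping intervals from the Car1 gate down to ungated cells and again between the Mcpt8 and Gzmb gates, while the Car1 and Prg2 gates were apart and the Elane gate was far below all of them. Against the Mcpt8 gate, Gata1 was 2.66 times higher in the Car1 gate (2.09 to 3.35), 2.11 times higher in the Hba-a1 gate (1.32 to 3.21) and 1.31 times higher in the Prg2 gate (1.05 to 1.61), and 14.4-fold lower in the Elane gate (10.5 to 20.4). In the Cd79a gate it had 0 UMIs in 51 cells, which allows up to 8.05 CPM, and the same was seen in 59 cKIT- cells, with a limit of 14.2 CPM. At 2000 UMIs, 17.5% of Car1-gated cells had a Gata1 UMI (70.0% unthinned), 11.1% of Hba-a1-gated cells (22.6%) and 7.04% of Mcpt8-gated cells (39.8%). Gata3 stayed at 3.33 CPM (1.52 to 6.32) in the Gzmb gate with 9 UMIs and at 0.797 CPM (0.558 to 1.10) in the Mcpt8 gate. It was higher, at 9.46 CPM with 6 UMIs, in the H2-Aa gate, 11.9 times the Mcpt8 gate (4.09 to 28.4). Gata3 was too scarce for a call in any gate.

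Gata1 and Gata2 UMIs were each summed over a gate, and the ratio of these sums was compared between gates. Both sums come from the same set of cells, so the ratio needs no scaling to CPM. It is not a ratio within single cells, and the part of a mix of cells in it was not tested. After thinning to 2000 UMIs, the cKIT+ Prg2 gate had 2 cells with both genes, 10 with Gata1 alone and 23 with Gata2 alone. The cKIT+ Car1 gate had 3, 4 and 17, and the cKIT+ Elane gate 0, 4 and 31. Thinned cells can miss a gene, so these counts do not settle the question. In the cKIT+ library there were 3.42 Gata1 UMIs per 100 Gata2 UMIs in the Gzmb gate (2.71 to 4.26), 5.13 in the Mcpt8 gate (4.88 to 5.39), 8.95 in ungated cells (8.29 to 9.65), 10.5 in the Elane gate (7.34 to 14.6), 39.5 in the Prg2 gate (30.7 to 50.5), 49.4 in the Car1 gate (37.0 to 65.4) and 147 in the Hba-a1 gate (72.7 to 304). The Hba-a1 value rests on 22 Gata1 and 15 Gata2 UMIs and moved from 53.1, when cells that also passed another gate were kept, to 367, when the highest doublet scores were left out. The Prg2 and Car1 gates did not differ beyond their intervals, and both lay well above the Mcpt8 and Gzmb gates. In the cKIT- library the ratio was 3.32 in the Mcpt8 gate (3.07 to 3.59) and 2.32 in ungated cells (1.92 to 2.77). The ratio of the Mcpt8 gate was thus higher in cKIT+ than in cKIT- cells, with intervals apart. The 33 cells that passed both the Prg2 and the Elane gate held 24 Gata1 and 19 Gata2 UMIs, or 126 per 100 (66.3 to 244).

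**Figure D2:**
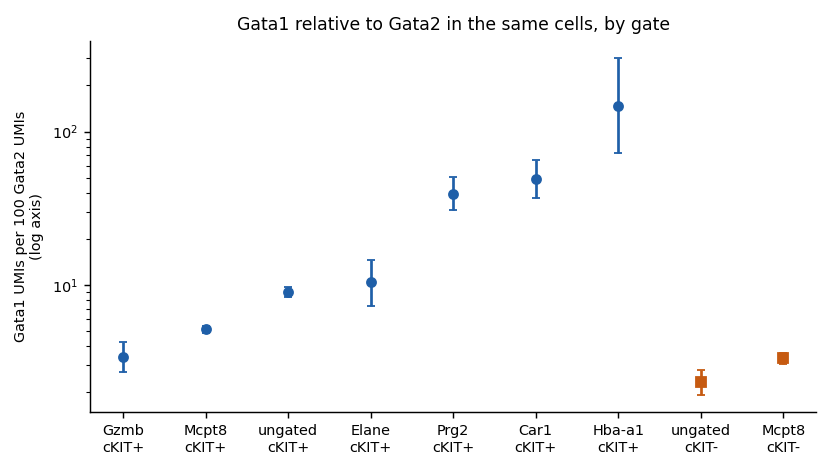
Gata1 UMIs per 100 Gata2 UMIs on a log axis for gates of the cKIT+ library (blue circles) and the cKIT- library (orange squares), with bars for the exact binomial 95% interval. The Gzmb and Mcpt8 gates sit at 3.42 and 5.13, the Prg2 and Car1 gates at 39.5 and 49.4, and the Hba-a1 gate at 147 with a wide interval.

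Zfpm1, the FOG1 gene, was high in the erythroid and Cd79a gates and low in the Mcpt8, Gzmb and Elane gates. It was at 287 CPM (228 to 356) in the Hba-a1 gate, 196 CPM (166 to 230) in the Car1 gate, 121 CPM (88.0 to 161) in the Cd79a gate, 20.1 CPM (18.0 to 22.3) in ungated cells, 17.3 CPM (11.9 to 24.2) in the Prg2 gate, 9.98 CPM (6.58 to 14.5) in the Gzmb gate, 6.42 CPM (5.70 to 7.21) in the Mcpt8 gate and 5.83 CPM (4.68 to 7.18) in the Elane gate. The intervals of the Hba-a1 and Car1 gates overlapped in a narrow range, and so did those of ungated cells and the Prg2 gate, the Prg2 and Gzmb, the Gzmb and Mcpt8 and the Mcpt8 and Elane gates. Against the Mcpt8 gate it was 44.6 times higher in the Hba-a1 gate (34.4 to 57.3), 30.5 times in the Car1 gate (24.9 to 37.3), 18.8 times in the Cd79a gate (13.4 to 25.8) and 2.69 times in the Prg2 gate (1.82 to 3.86). At 2000 UMIs, 42.5% of Car1-gated, 24.4% of Hba-a1-gated and 24.5% of Cd79a-gated cells had a Zfpm1 UMI, compared with 1.27% in the Mcpt8 gate (unthinned 77.5%, 43.4%, 43.1% and 8.06%). The 37 cells of the C1qa gate, a macrophage gate that should lack it, had 2 Zfpm1 UMIs at a median depth of 2311 UMIs, which is 16.3 CPM (1.97 to 58.9). That interval rests on 2 UMIs and holds the levels of the Prg2, Gzmb, Mcpt8 and Elane gates. An interval this wide cannot separate these gates from the C1qa gate, so nothing is concluded about them from it. The interval lies below the levels of the Hba-a1, Car1 and Cd79a gates. The Ngp gate, with 7 Zfpm1 UMIs, was lower at 1.92 CPM, which is 0.299 times the Mcpt8 gate (0.119 to 0.624).

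The Cd79a gate held Zfpm1 and no UMI of Gata1. In the cKIT+ library its 51 cells had 45 Zfpm1, 13 Gata2, 0 Gata1 and 0 Tal1 UMIs, and in the cKIT- library its 59 cells had 28 Zfpm1, 0 Gata1, 0 Gata2 and 0 Tal1 UMIs, which put Zfpm1 at 132 CPM (87.9 to 191) there. The level in both sorts did not differ beyond counting error. Per 100 Gata1 UMIs, Zfpm1 had 17.4 UMIs in the Mcpt8 gate (15.3 to 19.7), 35.9 in the Prg2 gate (23.3 to 53.9), 200 in the Car1 gate (151 to 267), 228 in the Elane gate (155 to 342) and 368 in the Hba-a1 gate (228 to 620). The Elane value comes from a low Gata1 level and not from a high Zfpm1 level.

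Tal1 and Lmo2, the bridge of the complex, were both high in the erythroid gates and parted in the Gzmb and Elane gates. Tal1 was at 138 CPM (98.1 to 189) in the Hba-a1 gate, 92.8 CPM (81.7 to 105) in the Gzmb gate, 76.1 CPM (58.0 to 98.2) in the Car1 gate, 38.7 CPM in ungated cells, 28.8 CPM (21.7 to 37.4) in the Prg2 gate, 27.9 CPM (26.4 to 29.5) in the Mcpt8 gate and 11.1 CPM (9.47 to 12.9) in the Elane gate. Lmo2 was at 343 CPM (278 to 419) in the Hba-a1 gate, 227 CPM (195 to 263) in the Car1 gate, 199 CPM (192 to 207) in the Elane gate, 115 CPM (99.9 to 131) in the Prg2 gate, 108 CPM (105 to 111) in the Mcpt8 gate, 100.2 CPM in ungated cells, 33.3 CPM (26.8 to 40.9) in the Gzmb gate and 24.1 CPM (11 to 45.8) in the Cd79a gate. For Tal1, the Hba-a1, Gzmb and Car1 gates overlapped, as did the Prg2 and Mcpt8 gates, and for Lmo2, the Car1 and Elane gates, the Prg2 and Mcpt8 gates and the Gzmb and Cd79a gates overlapped. The Gzmb gate had Tal1 at 3.32 times the Mcpt8 gate (2.89 to 3.81) with Lmo2 3.26-fold lower (2.64 to 4.06), and the Elane gate had Tal1 2.52-fold lower (2.15 to 2.98) with Lmo2 1.84 times higher (1.76 to 1.93). At 2000 UMIs, Tal1 was seen in 20.7% of Gzmb-gated and 5.54% of Mcpt8-gated cells (57.0% and 33.6% unthinned), and it had 0 UMIs in the Cd79a gate, at a median depth of 4268 UMIs.

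Lmo4, the other adaptor, was highest in the Gzmb gate. It was at 2357 CPM (2300 to 2416) in the Gzmb gate, 1352 CPM (1335 to 1369) in ungated cKIT+ cells, 902 CPM (894 to 911) in the Mcpt8 gate, 568 CPM (516 to 624) in the Car1 gate, 410 CPM (381 to 439) in the Prg2 gate, 209 CPM (165 to 261) in the Cd79a gate, 134 CPM (95.1 to 184) in the Hba-a1 gate and 119 CPM (114 to 125) in the Elane gate. Each step down to the Prg2 gate was larger than the counting error, the Cd79a and Hba-a1 gates overlapped, and so did the Hba-a1 and Elane gates. In the Hba-a1 gate its 38 UMIs came from 6 of 53 cells, and it was at 47.0 CPM without the highest doublet scores. Per 100 Lmo4 UMIs there were 1.41 Lmo2 UMIs in the Gzmb gate (1.13 to 1.74), 7.41 in ungated cells (7.06 to 7.78), 12 in the Mcpt8 gate (11.7 to 12.4), 28.0 in the Prg2 gate (24.0 to 32.5), 40 in the Car1 gate (33.4 to 47.7), 167 in the Elane gate (158 to 177) and 255 in the Hba-a1 gate (174 to 382). The order of the gates was that of Gata1 to Gata2 with 2 exceptions: ungated cells lay below the Mcpt8 gate, and the Elane gate stood next to the Hba-a1 gate. In the cKIT- library the Mcpt8 gate had 31.8 (30.3 to 33.3).

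**Figure D3:**
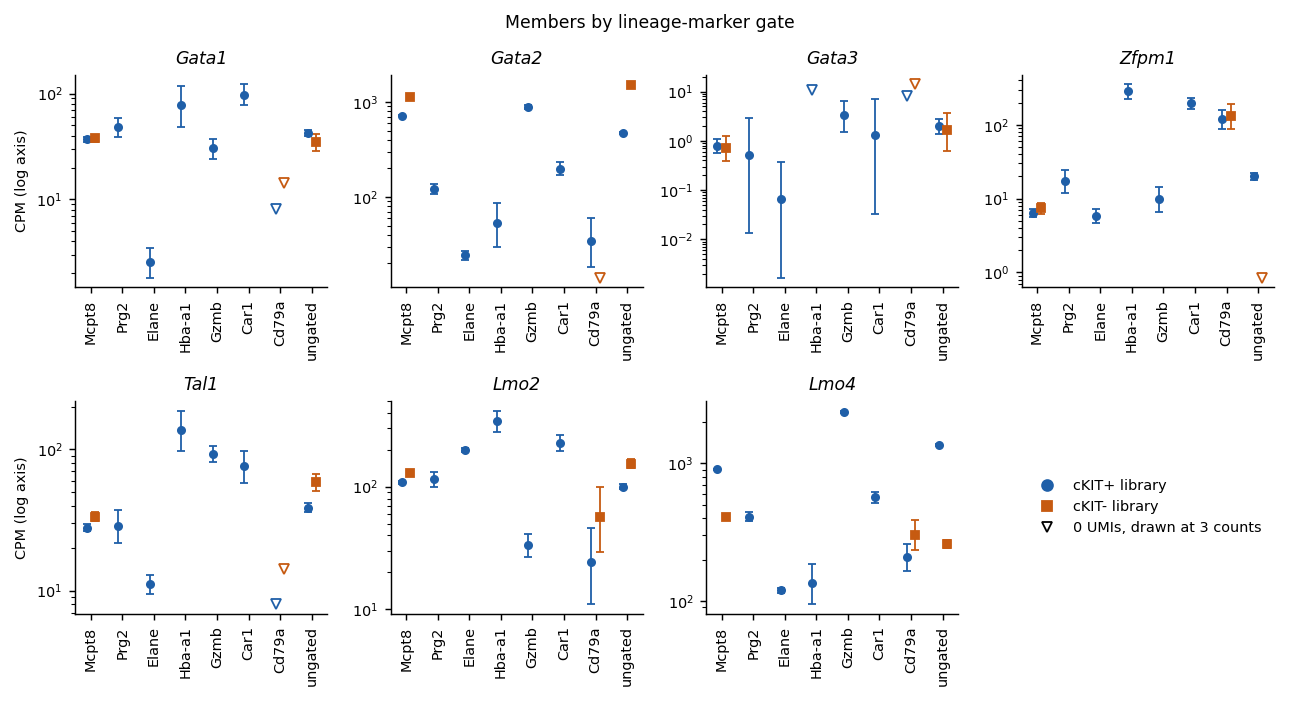
CPM of each member by gate on log axes, 1 panel a gene, with blue circles for the cKIT+ and orange squares for the cKIT- library, bars for the exact Poisson 95% interval and open triangles for 0 UMIs, drawn at the level of 3 counts. Zfpm1 is high in the Hba-a1, Car1 and Cd79a gates (287, 196 and 121 CPM), Gata2 and Lmo4 are high in the Gzmb gate (888 and 2357 CPM), and Gata1 is low in the Elane gate (2.56 CPM).

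The members were also read as a set against the Mcpt8 gate. Zfpm1 was under the 10 CPM minimum in that gate, at 6.42 CPM, so that it could be called higher in another gate but not lower. In the Hba-a1 gate 4 of 6 members tested were at least 2-fold higher (Gata1, Zfpm1, Tal1 and Lmo2) and 2 were lower (Gata2 and Lmo4), where 9.53% of all genes were higher and 64.8% lower. Adult globins took 50.7% of the UMIs of that gate, which lowers the CPM of every other gene. With globins left out of the total, an alternative chosen after seeing the data, the same 6 calls were made, with Gata1 at 158, Zfpm1 at 581 and Gata2 at 108 CPM. Gata1 fell under 2-fold, and 3 members were left, when each cell had the same weight or when cells that passed another gate were kept. Neutrophil genes summed to 12720 CPM in the Hba-a1 gate and to 2123 CPM in the Mcpt8 gate, with S100a8 leading both and Mmp8 at 0 in the former. Of the macrophage genes, 4 of 4 tested were higher in the Hba-a1 gate than in the Mcpt8 gate, with a median log2 ratio of 3.31. The part of both groups in the members' levels was not tested. In the Car1 gate 4 of 6 members were higher (Gata1, Zfpm1, Tal1 and Lmo2) and Gata2 alone was lower, against 12.9% and 13% of all genes, and its neutrophil genes summed to 81.3 CPM. Both erythroid gates hold few cells.

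In the Prg2 gate 1 of 6 members was higher (Zfpm1) and 2 were lower (Gata2 and Lmo4), against 7.85% and 6% of all genes. In the Elane gate 0 of 5 were higher and 4 were lower (Gata1, Gata2, Tal1 and Lmo4), against 5.88% and 8.65%, and the median log2 ratio of the members was -2.92, compared with 0.01 for all genes. The Ngp and H2-Aa gates had the same 4 members lower and 0 of 5 higher, against 37.4% lower and 8.02% higher of all genes in the Ngp gate and 13% lower and 19.8% higher in the H2-Aa gate. In the Gzmb gate 2 of 5 were higher (Tal1 and Lmo4) and 1 was lower (Lmo2), against 12.8% and 7.20%. Neutrophil genes summed to 7930 CPM there, dendritic cell genes to 668 CPM against 39.6 CPM in the Mcpt8 gate, with Siglech at 0, and T cell and innate lymphoid genes to 312 against 139 CPM, with Trac and Thy1 at 0. Of the macrophage genes, 3 of 3 tested were higher than in the Mcpt8 gate, with a median log2 ratio of 2.39. The part of these groups in the members' values was not tested. In the Cd79a gate 1 of 6 was higher (Zfpm1) and 5 were lower, against 19.2% and 13%. With 0 UMIs set to 3 counts, Gata1 was lower there by 4.58-fold and Tal1 by 3.47-fold. By the exact intervals Gata1 was at least 3.72-fold and Tal1 at least 2.82-fold lower. Ungated cKIT+ cells had 1 of 6 members higher than the Mcpt8 gate (Zfpm1, 3.13 times, 2.67 to 3.67) and none lower, against 2.11% and 1.94%. Ungated cKIT- cells had 0 of 5 members called either way, against 10.3% and 12.3%, with Gata2 at 1498 CPM (1.32 times the Mcpt8 gate, 1.28 to 1.36) and Tal1 at 58.5 CPM (1.75 times, 1.48 to 2.05). Zfpm1 had 0 UMIs in these 1151 cells, which allows up to 0.847 CPM at 3 counts. In the Mcpt8 gate 133 UMIs put it under the 10 CPM minimum. At 3 counts Zfpm1 was 8.70-fold lower in the ungated cells than in the Mcpt8 gate, and by the exact interval at least 6.98-fold lower.

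Within the Mcpt8 gate, which sets cells of both sorts that pass 1 marker side by side, the difference in Lmo4 remained and that in Gata2 was smaller. Lmo4 was at 902 CPM in cKIT+ and 410 CPM (401 to 420) in cKIT- cells, a ratio of 2.20 (2.14 to 2.25), and Gata2 at 719 and 1135 CPM (1119 to 1150), a ratio of 0.634 (0.623 to 0.645). Gata1 did not differ beyond counting error (36.9 and 37.7 CPM, 0.978, 0.894 to 1.07). Tal1 (27.9 and 33.5 CPM) and Lmo2 (108 and 130 CPM) were lower in cKIT+ cells by ratios of 0.834 and 0.831, and Zfpm1 was at 6.42 and 7.37 CPM, below the minimum for a call. Of 5 members tested, 1 was called higher and 0 lower, against 4.14% and 4.82% of all genes. The gated cells of the sorts were not alike in other ways: neutrophil genes summed to 2123 CPM in cKIT+ and 328 CPM in cKIT- cells (4 of 5 higher), granulocyte and monocyte progenitor genes to 9356 and 6070 CPM (4 of 6 higher) and T cell and innate lymphoid genes to 139 and 340 CPM (2 of 4 lower), and the median depth was 14103 and 7736 UMIs. The part of these in the Lmo4 call was not tested. In the whole cKIT- library, the T cell and innate lymphoid list was led by Cd7, with 6271 UMIs, while Cd3e had 6. At 2000 UMIs, Lmo4 was seen in 74.9% of cKIT+ and 51.4% of cKIT- cells of the gate (98.3% and 82.9% unthinned), and Gata2 in 73.6% and 88.8% (98.9% and 99.5%).

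Prss34, which encodes a basophil protease, divided the gate further at 1% of a cell's UMIs. Among Prss34-high cells, 2076 of them cKIT+ and 1921 cKIT-, 0 of 5 members were called either way, against 2.81% and 3.48% of all genes, with Lmo4 at 737 and 412 CPM (1.79, 1.74 to 1.84) and Gata2 at 746 and 1112 CPM (0.671, 0.658 to 0.684). Among Prss34-low cells, 963 and 276 of them, Lmo4 was called higher in cKIT+ cells, at 1266 against 391 CPM (3.24, 2.94 to 3.58), and Gata2 lower, at 659 against 1497 CPM (0.440, 0.417 to 0.465), which is 1 of 5 each way against 20% and 17.5% of all genes. Tal1 was at 31.6 and 60.6 CPM in these cells (0.521, 0.400 to 0.688). The Prss34-low cells of the sorts thus lay further apart than the Prss34-high cells in Lmo4, Gata2 and Tal1, and so did genes as a whole.

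Within 1 sort, Prss34-low over Prss34-high cells gave 0 of 5 member calls in cKIT+ cells, against 0.412% of genes higher and 0.758% lower. Lmo4 was nonetheless 1.72 times higher in the Prss34-low cells (1.68 to 1.75), a ratio above that of 99.1% of the genes tested. Dendritic cell genes were also higher there for 3 of 3 tested (median log2 ratio 3.61), as was the 1 macrophage gene tested (3.07). Their part in the Lmo4 ratio was not tested. In cKIT- cells 0 of 5 members were called, against 6.95% and 11.7%, and Gata2 was 1.35 times (1.28 to 1.42) and Tal1 1.91 times (1.45 to 2.47) higher in the Prss34-low cells, while Lmo4 did not differ beyond counting error (0.95, 0.858 to 1.05). Zfpm1 had 2 UMIs in the 276 Prss34-low and 131 UMIs in the 1921 Prss34-high cKIT- cells. The cKIT- Prss34-low cells were shallow, with a median of 3546.5 UMIs against 8641. In them 5 of 5 neutrophil and 2 of 2 dendritic cell genes tested were lower, and 2 of 4 T cell and innate lymphoid genes were higher. The part of these groups and of depth in the members' ratios was not tested.

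Cells of the Mcpt8 gate were also divided by Mki67 and Top2a, proliferation genes, at 0.02% of UMIs. In cKIT+ cells 0 of 5 members were called between cycling and non-cycling cells, against 3.99% of genes higher and 0.437% lower. Gata1 was 1.30 times higher in cycling cells (39.6 and 30.4 CPM, 1.17 to 1.46) and Tal1 lower at a ratio of 0.749 (25.4 and 33.9 CPM, 0.667 to 0.842). In cKIT- cells 1 of 6 members was called higher and 0 lower, against 6.91% and 2.48%. It was Zfpm1, at 11.1 CPM in cycling cells (116 UMIs) and 2.25 CPM in the others (17 UMIs), a ratio of 4.92 (2.95 to 8.74). Zfpm1 reached the 10 CPM minimum in the cycling cells alone, so that it could not have been called lower. In cKIT+ cells it was below the minimum, at 6.99 and 5.10 CPM, a ratio of 1.37 (1.04 to 1.82). Among cKIT- cells Tal1 was again lower in cycling cells, at a ratio of 0.603 (0.512 to 0.710), and Gata1 again higher, at 1.19 (1.02 to 1.40). Dendritic cell genes were lower in cycling cells for 3 of 3 tested in each sort. Neutrophil genes were lower for 1 of 6 in cKIT+ and 4 of 5 in cKIT- cells. Median depth was 16807 UMIs in cycling against 11226 in other cKIT+ cells, and 10616 against 5278 in cKIT- cells. The part of these in the members' ratios was not tested.

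**Figure D4:**
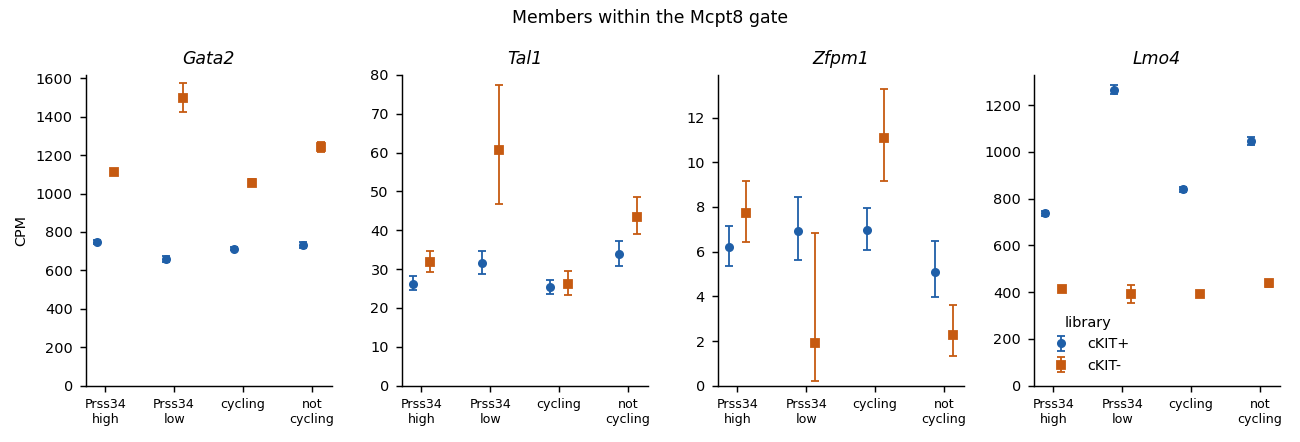
CPM of Gata2, Tal1, Zfpm1 and Lmo4 in subsets of the Mcpt8 gate on linear axes, with blue circles for the cKIT+ and orange squares for the cKIT- library and bars for the exact Poisson 95% interval. Lmo4 is higher in cKIT+ cells of all 4 subsets and reaches 1266 CPM in Prss34-low cells. Zfpm1 in cKIT- cells is at 11.1 CPM in cycling and 2.25 CPM in non-cycling cells, and in cKIT+ cells at 6.99 and 5.10 CPM.

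Genes of the complex and its corepressors were read from a list of 30, which also holds other fate factors, such as Cebpa, Cebpe and Myb. A change in those factors is not a change in the complex itself. Between the sorts, 3 of 28 tested were higher in cKIT+ cells and 1 was lower, against 7.30% and 9.06% of all genes, with a median log2 ratio of -0.09. The former were Cebpe, a granulocyte factor (149 and 5.38 CPM), Myb, a progenitor factor (307 and 71.9 CPM), and Gfi1, a repressor of granulocyte progenitors (23.8 and 7.91 CPM), and the latter was Cebpa, at 223 and 667 CPM. Ldb1, which ties the LIM adaptors to the complex, was at 23.7 CPM in cKIT+ and 33.2 CPM in cKIT- cells of the Mcpt8 gate. In the Hba-a1 gate 4 of 28 were higher than in the Mcpt8 gate and 16 lower, against 9.53% and 64.8%, so that the lower share is near that of all genes, with Klf1, the erythroid Krüppel-like factor, at 272 and 3.85 CPM and Gfi1b, a repressor recruited by GATA1, at 106 and 29.1 CPM. In the Car1 gate 5 of 27 were higher and 4 lower, against 12.9% and 13%, with Klf1 at 237, Gfi1b at 85.2 and Ldb1 at 65.8 CPM. In the Gzmb gate 6 of 29 were higher and 1 lower, against 12.8% and 7.20%, Klf1 at 18.9 CPM among the former and Cebpa, at 20.7 against 336 CPM, the latter. The Prg2 gate had 3 of 28 higher and 5 lower, against 7.85% and 6%, with Cebpe at 949 and 9.97 CPM. The Elane gate had 4 of 29 higher and 6 lower, against 5.88% and 8.65%, with Gfi1b at 0.983 CPM and Gfi1 at 97.1 CPM.

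Genes known as targets of GATA1 in red cells and platelets, and of GATA2 or GATA1 in basophils and mast cells, were counted in the same way. Some of them are gate markers or the sort gene, so their direction in that gate is no independent evidence. Mcpt8-gated cells were left out of the other gates, so that low basophil genes there are partly set by the gating. A gene under 10 CPM in 1 gate could only be called towards the other. Between Prss34-low and Prss34-high cells of the cKIT+ Mcpt8 gate, 5 of the 22 erythroid and megakaryocyte targets reached that minimum. Most of those tested against the erythroid gates thus passed it through these gates alone. Their counts of higher genes are therefore partly set by the minimum. Of the erythroid and megakaryocyte targets, 15 of 17 tested were higher in the Hba-a1 gate than in the Mcpt8 gate and 1 was lower, where 9.53% and 64.8% of all genes were, and 16 of 18 were higher in the Car1 gate and 1 lower (12.9% and 13%), among them Rhd (183 and 0.111 CPM) and Ermap (174 and 0.221 CPM), blood group genes of the red cell membrane. Itga2b, an integrin of platelets and basophils, was the 1 lower in both. In the Gzmb gate 3 of 7 were higher and 1 lower (12.8% and 7.20%), led by Car1 at 94.6 and 1.11 CPM. Of the basophil and mast cell targets, 0 of 12 were higher and 12 lower in the Hba-a1 gate, with 64.8% of all genes lower there, and 1 was higher (Kit) and 11 lower of 12 in the Car1 gate (13% of all genes lower). The Elane gate had 1 higher (Kit) and 9 lower of 12 (5.88% and 8.65%), and the Gzmb gate 2 higher of 13 (Cma1, a mast cell chymase, at 435 and 3.03 CPM, and Kit at 193 and 16.3 CPM) and 6 lower (12.8% and 7.20%). Between the sorts 2 of 14 were higher in cKIT+ cells (Kit and Cma1) and 9 lower (7.30% and 9.06%), including Cd200r3 (21.1 and 329 CPM), Il4 (2.62 and 37.3 CPM) and Fcer1a, the IgE receptor alpha chain (377 and 1398 CPM), with a median log2 ratio of -1.09.

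The genes most like each member were taken from Pearson's r of log2(CPM + 10) over 16 gates of at least 30 cells, among 9433 genes. The gates share libraries and differ in depth and size, so r is a description. Gata1 was closest to Tal1 (r 0.930), Gfi1b (0.917) and Icam4 (0.878), and Tal1 to Gata1, Gfi1b (0.891) and Daam1 (0.882). Gata2 was closest to Csrp3 (0.980), Ifitm1 (0.966) and Rab37 (0.958). Zfpm1 was closest to Odc1 (0.881), Slc16a1 (0.880) and Rfx2 (0.872), Lmo2 to Gpx1 (0.834), Dhrs13 (0.763) and Hebp1 (0.743), and Lmo4 to Tiam2 (0.894), Scin (0.884) and Slc22a3 (0.864). Only Gata1 and Tal1 thus had another member among their closest genes. Gata1 and Gata2 had an r of 0.719 with each other.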

How the data were processed

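Single-cell 3′ libraries of E-cadherin+cKIT+ and E-cadherin+cKIT- mouse bone marrow cells, 1 per sort, were analysed. The values are UMI counts as deposited by the authors, not normalized. The submitters' processing notes name Cell Ranger 3.0.2 and the build mm10. The 10x kit is version 3 in the methods and version 2 in the labels, and no value printed depends on it. Every count column belonged to a sample (0 left unused). The 7 genes and all gene lists were chosen with earlier results of these data known. Following the study's methods, each library lost the 1% of cells at either end of the distribution of detected genes and the 1% with most UMIs. This left 10141 of 10377 cells. Genes detected in under 40 cells were set aside only while genes and UMIs per cell were counted for this filter. All genes were kept for the levels and totals. The matrices held 95477153 and 24033994 UMIs.

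Gates required at least 3 UMIs and a minimum share of a cell's UMIs: 0.5% for Mcpt8, 0.1% for Prg2, Elane, Ngp and H2-Aa, 1% for Hba-a1, and 0.05% for Gzmb, Car1, C1qa and Cd79a. The gates of Car1, C1qa, Cd79a, Ngp and H2-Aa were applied to cells that passed none of the others. CPM is the UMIs of a gene over all UMIs of a group. With 1 library per condition no test was run and no p-value is given. Intervals are 95%, exact Poisson for sums and exact binomial for ratios and shares, and cover counting error only. A gene was called at 2-fold with at least 10 CPM in either group. One that was under 10 CPM in 1 group could thus be called only towards the other. A count of 0 allows 3 counts of the total, and in medians of log2 ratios values under 3 UMIs were set to that level. Shares of cells with a UMI were computed after thinning cells to 2000 UMIs, leaving out shallower ones, and unthinned.

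Doublets were kept. Scrublet (Scanpy 1.11.5) marked 4.33% of cKIT+ and 0.0801% of cKIT- cells, so its call did not work in the latter, and one alternative instead removed the top-scoring cells at a rate of 0.8% for every 1000 cells (321 and 105 kept cells). A total without globins was chosen after seeing the data. Other alternatives covered the cell filter, gate limits, scaling, weighting and depth. edgeR 4.0.16 in R 4.3.3 gave TMM factors alone, and SciPy 1.17.1 the intervals. The code was tested on simulated counts. Genes named are the members, gate markers, Kit and Cdh1, the 3 list genes with the largest ratio each way in a comparison, and the 3 genes closest to each member. T cell genes, Ldb1 and a few other list genes were named after their values were seen. Promoters are from RefSeq (GRCm38.p6), gene spans from GENCODE vM21.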

Additional observations from a re-analysis of the deposited data

Results flagged for a closer look

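Some members moved in opposite directions in the sorts under the same contrast, with intervals on either side of 1. With 1 library per sort, the difference itself was not tested. Prss34-low over Prss34-high cells of the Mcpt8 gate gave Gata2 a ratio of 0.8831 in cKIT+ and 1.346 in cKIT- cells, and Lmo2 ratios of 0.9134 and 1.253. In ungated cells over the Mcpt8 gate, Gata2 had a ratio of 0.6576 in cKIT+ and 1.32 in cKIT- cells, Lmo2 ratios of 0.925 and 1.182, and Lmo4 ratios of 1.498 and 0.6309. Zfpm1 had a ratio of 3.127 in cKIT+ cells and 0.0 in cKIT- cells, where no UMI was counted in ungated cells. Ungated cells held other gene groups in each sort: granulocyte and monocyte progenitor genes summed to 6114 CPM in cKIT+ and to 250 CPM in cKIT- cells, and T cell and innate lymphoid genes to 106 and 1637 CPM. Their part in these ratios was not tested. In the whole cKIT- library, the T cell and innate lymphoid list was carried mainly by Cd7, Trbc2 and Il7r (6271, 3164 and 1728 UMIs). Cd3d had 204 UMIs there, and Cd3g, Trac and Cd3e had 19, 8 and 6, so the sum alone does not show T cells.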

How the results depend on the processing

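No paired analysis was possible because each sort has 1 library, and for the same reason no replicate could be left out. Of 213 alternative values, 152 stayed within their interval or count range, 61 moved and 0 changed the sign of a call. The sort ratios (cKIT+ over cKIT-) depended on the scale, and UMIs per cell also carry the read depth of each library. As UMIs per cell the sort ratios were 1.951 for Gata1, 0.987 for Gata2, 2.572 for Gata3, 3.319 for Zfpm1, 1.784 for Tal1, 1.976 for Lmo2 and 5.083 for Lmo4. TMM scaling gave 0.449 for Gata2 and 2.313 for Lmo4. Without the 10 most abundant genes in the total, the ratios were 0.4079 for Gata2, 0.8167 for Lmo2 and 2.101 for Lmo4. With the same weight for each cell they were 2.151 for Zfpm1, 0.7627 for Lmo2 and 2.773 for Lmo4, and after thinning to 2000 UMIs 2.483 for Zfpm1, 0.7132 for Tal1, 0.7431 for Lmo2 and 2.779 for Lmo4. All deposited cells gave 2.162 for Lmo4. Within the Mcpt8 gate, gates at 0.5 times their percent gave 0.6071 for Gata2 and 2.312 for Lmo4, gates at 2 times gave 0.6632 and 2.026, and the same weight for each cell gave 0.6092, 2.349 and, for Zfpm1, 1.12. Gata1 UMIs per 100 Gata2 UMIs in the Hba-a1 gate were 53.06 for any passing cell and 366.7 without the highest Scrublet scores.

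Shares of cells with a UMI followed depth. In cKIT+ cells, thinning to 1000 UMIs gave 3.018% for Gata1, 36.85% for Gata2, 1.264% for Zfpm1, 2.939% for Tal1, 10.56% for Lmo2 and 48.63% for Lmo4, and no thinning 30.45%, 76.37%, 11.07%, 31.01%, 65.38% and 89.26%, with Gata3 at 1.173%. In cKIT- cells the shares at 1000 UMIs were 3.687%, 64.42%, 0.6879%, 4.1%, 13.21% and 26.55% in the same order, and unthinned 18.46%, 88.8%, 3.96%, 19.14%, 51.31% and 68.87%, with Gata3 at 0.4915%. Genes past 2-fold between the sorts numbered 586 higher and 727 lower, 2500 and 1675 with at least 10 UMIs as the minimum, 198 and 371 with at least 50 CPM, and 132 and 174 at 4-fold, so that 44.6% of calls were higher by the rule used and 59.9% with the UMI minimum. The added total without globins left 36 of 42 gate levels within their interval, and the 6 that moved, all in the Hba-a1 gate, rose. Small gates (Hba-a1, Car1 and Cd79a) rest on few UMIs, and the absence of replicates limits every comparison.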

Other observations

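Relatives of the members that lie outside the set were counted as well: Gata4, Gata5, Gata6, Zfpm2 and Lmo3 had 0 UMIs in the Mcpt8 gate of both sorts. Between the sorts, 0 of 4 tested relatives passed 2-fold, where 7.30% of all genes were higher and 9.06% lower. Against the Mcpt8 gate, the Elane gate had 2 of 5 higher and 1 lower (Gatad1), where 5.88% of all genes were higher and 8.65% lower. The H2-Aa gate had 1 of 5 higher and 1 lower (19.8% and 13%), and the Ngp gate 1 of 5 higher (8.02%). In the Cd79a gate 1 of 4 was higher and 1 lower (19.2% and 13%). Lower were 2 of 4 in the Hba-a1 gate (64.8%) and 1 of 4 in the Prg2 gate (6%). None of 4 was called in the Gzmb gate (12.8% higher and 7.20% lower) or the Car1 gate (12.9% and 13%). Lmo1, another LIM-only adaptor, was at 26.3 CPM (401 UMIs) in the Elane gate, 39.5 CPM (144 UMIs) in the Ngp gate and 66.2 CPM (42 UMIs) in the H2-Aa gate against 0.819 CPM in the Mcpt8 gate, and Lyl1, a close relative of Tal1, at 149 CPM in the Elane gate and 110 CPM in the Cd79a gate against 52.4 CPM. In the Elane gate Lyl1 was thus 2.84 times higher and Tal1 2.52-fold lower. Lmo1 was under the 10 CPM minimum in the Mcpt8 gate. It could thus be called higher in the Elane, Ngp and H2-Aa gates but not lower, so the counts of higher relatives there are partly set by the minimum.

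In the Cd79a gate Tcf3, which encodes an E protein partner of TAL1 and a B cell factor, was at 354 CPM against 55.3 CPM in the Mcpt8 gate, and Tcf12, another E protein gene, at 99.2 against 39.8 CPM. In the Gzmb gate 256 Car1 UMIs were spread over 90 of 302 cells, and Klf1 had 51 UMIs. Within the Elane gate at 2000 UMIs, 45.2% of cells with a Gata2 UMI had an Lmo4 UMI (14 of 31 cells, 27.3 to 64.0%). Of the 610 without one, 17.5% did (14.6 to 20.8%). The same shares were 84.6% (of 13 cells) and 40.6% in the Ngp gate, but 74.4% and 76.4% in the Mcpt8 gate.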
